A study of Mus musculus with 7 samples.

Results

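Cytochrome P450 enzymes are haem proteins of the endoplasmic reticulum and mitochondria that insert oxygen into drugs, fatty acids, steroids, bile acids and vitamins. In the adult mouse liver they mark mature hepatocytes, and many are arranged along the lobule, with Cyp2e1 and Cyp1a2 around the central vein and Cyp2f2 around the portal vein. Several members are also set by the sex-specific pattern of growth hormone. The genes were taken as all symbols of the form Cyp, a family number, a letter and a gene number, which gave 94 of the 32285 genes in the count matrices. All 94 were protein coding in GENCODE M21 (GRCm38), and they fell into 39 subfamilies, the largest being the 15 Cyp2c genes on chromosome 19 and the 9 Cyp4f genes.

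Levels were read from 7 single-cell libraries of mouse liver from a study of the ABC-Myc mouse (Alb-Cre;CAG-MYC), in which the albumin promoter drives Cre and so limits human MYC to the hepatocyte lineage. The study's text calls NEJ723, NEJ709, NEJ687 and NEJ634 tumor samples. It also speaks of healthy livers, without naming them, and of littermates of other genotypes as controls. NEJ638, NEJ654 and NEJ677 are not among the samples it calls tumors, so by elimination they would be its healthy livers. The sample labels give all 7 libraries the same liver and model description, the one for NEJ709 carries the tissue name of NEJ634, and the ages of these animals are not given. Values are therefore given library by library, without a test between libraries. The libraries held between 40214395 and 132485391 UMIs and between 6716 and 17002 analysed cells. Cell barcodes were shared between libraries, up to 191 between NEJ654 and NEJ677 and 116 between NEJ709 and NEJ723. Xist stood at 526 CPM in NEJ634, 1205 CPM in NEJ638 and 479 CPM in NEJ654 over all analysed cells, where CPM is the UMIs of a gene per 1000000 UMIs of the pooled cells. In the other 4 libraries Xist was under 0.1 CPM and the Y-linked Ddx3y was between 34.0 and 58.7 CPM.

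Hepatocyte-lineage-like cells were 4 clusters named from a hepatocyte list (Alb, Apoa1, Ttr, Hnf4a and others) and a hepatoblast list (Afp, Igf2, Dlk1 and others). They numbered 3891 in NEJ634, 197 in NEJ687, 32 in NEJ709, 8 in NEJ723, 290 in NEJ638, 258 in NEJ654 and 97 in NEJ677. NEJ723, under the minimum of 20 cells, was left out of the lineage results. Cluster 2 held 3804 of the NEJ634 cells, 195 of those in NEJ687 and all 32 in NEJ709, while cluster 31 held all 290 in NEJ638, 256 in NEJ654 and 96 in NEJ677. All 14 hepatocyte list genes were higher in the class than in the other cells of every library. The clusters were named with these lists, so this is a description and no separate check. Afp, the fetal albumin relative, stood at 2507, 1601 and 1555 CPM in the class of NEJ634, NEJ687 and NEJ709, and at 9.73, 3.70 and 5.51 CPM in that of NEJ638, NEJ654 and NEJ677. Neutrophil list genes summed to 7431 CPM in the class of NEJ634 and 4658 CPM in NEJ709 but to between 51.8 and 473 CPM in NEJ687, NEJ638, NEJ654 and NEJ677. Erythroid list genes summed to 23038 CPM in NEJ709 and 12679.7 CPM in NEJ634 and to between 1537 and 9745 CPM in the other 4. Macrophage and endothelial list genes were highest in NEJ654, at 1096 and 645 CPM. The part of these cells' RNA in the levels given was not tested. The share of free RNA in the class, estimated from leukocyte and endothelial markers, was 44.1% in NEJ634, 5.13% in NEJ687, 13.8% in NEJ709, 13.7% in NEJ638, 23.0% in NEJ654 and 7.98% in NEJ677. Its part in single gene levels was not tested beyond the subtraction given with the totals. The ambient profile came from the barcodes of ranks 45000 to 90000 by UMIs. In NEJ634 68463 barcodes of 500 UMIs or more were candidate cells, and 20000 of them were tested. The ambient ranks of NEJ634 thus include untested candidates. Its free RNA share, ambient level and subtracted total may rest partly on cells.

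Promoters of members that the levels below turn on are printed first, since close pairs differed widely between libraries. The 250 bases before the start of Cyp2a4 and Cyp2a5 were identical at 245 of 249 aligned positions, their windows being shifted by 1 base, and those of Cyp2b9 and Cyp2b13 at 248 of 250, with chromosome 7 coordinates of RefSeq (GRCm38.p6), plus strand, at chr7:26306942-26307191, chr7:26835089-26835338, chr7:26173159-26173408 and chr7:26061245-26061494. Capitals mark bases that differ within the pair, 5′ to 3′.
Cyp2a4: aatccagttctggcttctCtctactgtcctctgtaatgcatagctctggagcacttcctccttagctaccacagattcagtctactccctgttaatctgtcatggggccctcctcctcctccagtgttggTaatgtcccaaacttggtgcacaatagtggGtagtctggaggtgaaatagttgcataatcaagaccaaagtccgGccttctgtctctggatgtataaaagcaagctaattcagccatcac
Cyp2a5: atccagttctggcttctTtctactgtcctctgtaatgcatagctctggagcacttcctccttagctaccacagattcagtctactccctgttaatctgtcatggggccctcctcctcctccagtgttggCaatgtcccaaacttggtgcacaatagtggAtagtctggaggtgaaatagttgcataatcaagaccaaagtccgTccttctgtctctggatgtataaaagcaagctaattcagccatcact
Cyp2b9: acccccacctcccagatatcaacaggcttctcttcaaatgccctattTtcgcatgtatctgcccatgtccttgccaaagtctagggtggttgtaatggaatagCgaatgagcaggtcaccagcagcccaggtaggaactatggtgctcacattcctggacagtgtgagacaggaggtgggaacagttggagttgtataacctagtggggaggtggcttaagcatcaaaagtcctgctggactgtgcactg
Cyp2b13: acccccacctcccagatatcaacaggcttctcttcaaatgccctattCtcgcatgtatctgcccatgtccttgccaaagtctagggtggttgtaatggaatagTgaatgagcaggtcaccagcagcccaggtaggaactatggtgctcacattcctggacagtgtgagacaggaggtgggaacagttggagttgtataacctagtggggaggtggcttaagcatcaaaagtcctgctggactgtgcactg

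The promoter of Cyp1a1, the classic target of the aryl hydrocarbon receptor (Ahr), lies at chr9:57697363-57697612 on the plus strand. Capitals mark GCGTG, the core letters that Ahr binds, and TATAAA, each searched on both strands.
Cyp1a1: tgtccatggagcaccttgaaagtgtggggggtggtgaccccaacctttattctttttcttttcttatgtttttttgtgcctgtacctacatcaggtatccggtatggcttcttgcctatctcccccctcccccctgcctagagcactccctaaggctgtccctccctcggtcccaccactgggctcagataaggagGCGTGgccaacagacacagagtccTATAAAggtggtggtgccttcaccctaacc
GCGTG occurred in 15 of the 73 member promoters in the RefSeq table and in 28.2% of 27025 promoters of the same length, and TATAAA in 26 of the 73 and in 12.97% of all. A match is a description of the letters, not of a binding site.

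The summed P450 level of hepatocyte-lineage-like cells spanned 23.7-fold between libraries (95% interval 21.4 to 26.3, NEJ677 over NEJ709). It was 17505.5 CPM in NEJ677, 16108 CPM in NEJ638 and 9651 CPM in NEJ654, and 990.0 CPM in NEJ634, 781 CPM in NEJ687 and 739 CPM in NEJ709. The intervals of NEJ687 (752 to 810) and NEJ709 (666 to 817) overlapped, and those of all other neighbours in this order were apart. After subtraction of the ambient profile the order of the upper 3 held, with 18736, 18003 and 11500 CPM, and NEJ634, NEJ687 and NEJ709 stood at 1354, 807 and 826 CPM. The totals depended on which clusters entered. With each library clustered alone NEJ677 stood at 8625 CPM over 200 cells and NEJ634 at 363 CPM over 30 cells. With the unnamed clusters closest to the hepatocyte lists counted in, NEJ677 stood at 3843 CPM over 1031 cells, NEJ654 at 4731 CPM over 650 cells and NEJ709 at 459 CPM over 42 cells, and the lowest of NEJ638, NEJ654 and NEJ677 remained above the highest of the others, NEJ634 at 895 CPM. In NEJ709, 4 of the 32 cells carried a barcode that was also a cell of another library, and without them the total was 873 CPM.

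**Figure D1:**
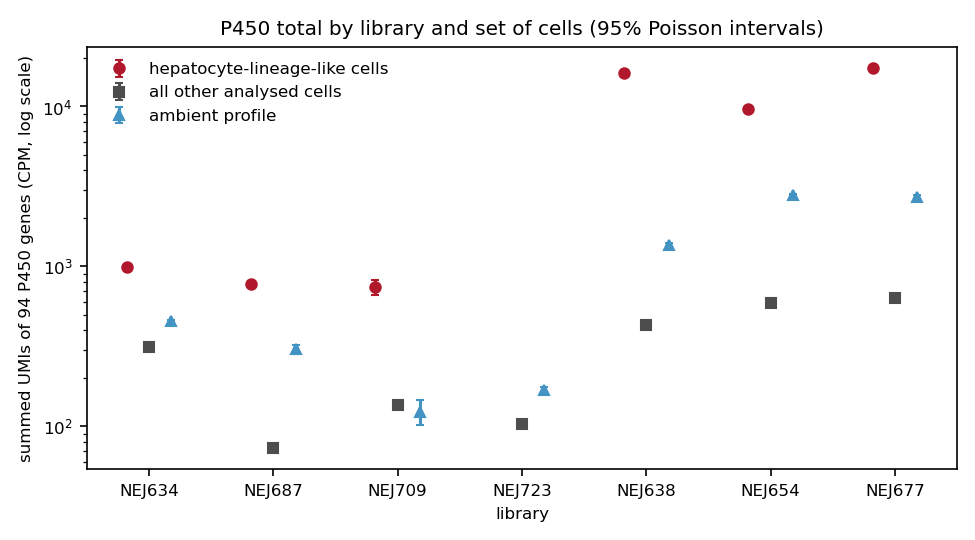
Summed level of the 94 P450 genes (CPM, log axis) by library, in hepatocyte-lineage-like cells (circles, 6 libraries with 20 or more such cells), in all other analysed cells (squares) and in the ambient profile (triangles), with 95% Poisson intervals. The circles of NEJ638, NEJ654 and NEJ677 sit between 9651 and 17505.5 CPM and those of NEJ634, NEJ687 and NEJ709 between 739 and 990.0 CPM.

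Outside the lineage the summed level was lower and also differed between libraries. Other cells stood at 313 CPM in NEJ634, 73.5 in NEJ687, 136 in NEJ709, 103 in NEJ723, 427 in NEJ638, 591 in NEJ654 and 635 in NEJ677. Ambient profiles stood at 453, 303, 123, 168, 1368, 2795 and 2734 CPM in the same order. That of NEJ634 may hold untested cells, as stated above. In 6 of the 7 libraries the ambient profile was above the other cells, the exception being NEJ709, whose ambient interval (102 to 146 CPM) included its other-cell level. After each cell was thinned to 500 UMIs, a P450 UMI was found in 99.3% of lineage cells of NEJ638, 95.9% in NEJ677, 89.9% in NEJ654, 34.5% in NEJ634, 31.98% in NEJ687 and 18.8% in NEJ709. The same share in T/NK-like cells was 11.9% in NEJ638, 13.1% in NEJ677, 15.6% in NEJ654, 7.22% in NEJ634, 0.882% in NEJ687 and 0 of 51 cells in NEJ709. This share counts any member, also those such as Cyp4f18 that stood higher in other cells, and so does not measure free RNA alone. Unthinned, the lineage share was 100% in NEJ638 (median depth 9086 UMIs per cell), 97.9% in NEJ677 (4641), 96.5% in NEJ654 (1622), 85.5% in NEJ634 (2908), 87.8% in NEJ687 (15466) and 71.9% in NEJ709 (3466), while the unthinned share in the T/NK-like cells lay between 17.6% and 50.8% at median depths between 1642 and 7725 UMIs. The NEJ709 interval (7.21% to 36.4%) included the shares of NEJ634 and NEJ687.

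A level of 10 CPM or more was reached by 55 of the 94 members in at least 1 library and by 12 in all 6. The count was 48 in NEJ638, 44 in NEJ654, 44 in NEJ677, 22 in NEJ634, 17 in NEJ687 and 17 in NEJ709. The share of all genes at this level was not computed. Counts at 10 CPM, here and below, therefore describe the members only and are not read as particular to P450 genes. The 12 members were Cyp3a11, Cyp3a13, Cyp3a25, Cyp2c68, Cyp2c70, Cyp2d9, Cyp2d10, Cyp2d26, Cyp2e1, Cyp4a14, Cyp27a1 and Cyp39a1. No UMI was counted in any analysed cell for 7 members, among them the aldosterone synthase Cyp11b2. The leading member in each of the 6 libraries was Cyp3a11, the mouse counterpart of the main human drug-metabolizing enzyme, with 12.9% to 24.8% of all P450 UMIs.

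**Figure D2:**
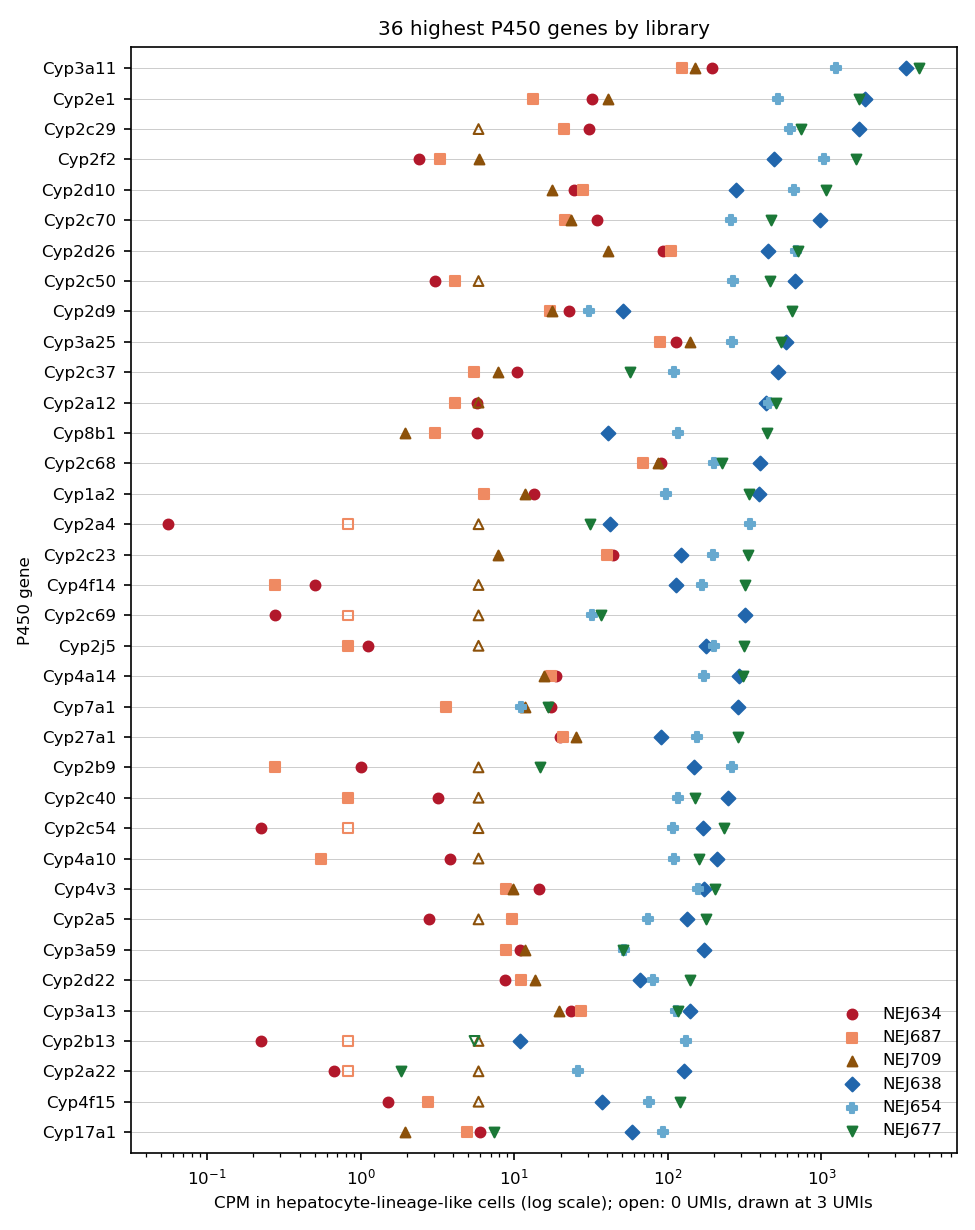
Level of the 36 P450 genes with the highest CPM, 1 point per library, in hepatocyte-lineage-like cells (CPM, log axis). Open points are libraries with 0 UMIs, drawn at the value of 3 UMIs in that library, which is 5.85 CPM in NEJ709. Cyp2a4 runs from 0.0557 CPM in NEJ634 to 344 CPM in NEJ654, whereas Cyp2c68 and Cyp3a25 stay within 5.85-fold and 6.63-fold.

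Among genes with 100 CPM or more in their highest library, 32 of 35 members spanned 10-fold or more between libraries, where 21.6% of all 2191 genes at that level did. The median span of the 35 was 79.7-fold, beside 4.52-fold over the 2191. The highest library was NEJ677 for 17 of the 35, NEJ638 for 15 and NEJ654 for 3, so each of them entered through a library where it was high, and members with their highest level elsewhere, such as Cyp1a1, were under 100 CPM and not counted. The count describes these 35 and supports no statement on all members. For the 35 the lowest was NEJ687 for 17, NEJ634 for 11 and NEJ709 for 7, with a count of 0 set to 3 UMIs. That floor is 5.85 CPM in NEJ709, 0.825 CPM in NEJ687 and 0.167 CPM in NEJ634. Members with 0 UMIs in NEJ709, such as Cyp2c50 and Cyp2j5, were therefore counted for NEJ634 or NEJ687. The tally thus depends on the depth of each pool and does not rank these libraries. Every gene whose symbol starts with Cyp was left out of the genes used for clustering. The spans describe these libraries, whose lineage cells came from different clusters (2 and 31), and are not a test.

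The highest levels in any library were those of Cyp3a11, Cyp2e1, Cyp2c29, Cyp2f2 and Cyp2d10, in this order. Cyp3a11 stood at 4345 CPM in NEJ677, 3550 in NEJ638, 1247 in NEJ654, 195 in NEJ634, 150 in NEJ709 and 124 in NEJ687, with a span of 35.1-fold (31.7 to 38.9). In NEJ677 Cyp3a11 stood at 2142 CPM with libraries clustered alone and at 837 CPM with unnamed clusters counted in, both below NEJ638 at 3481 CPM, and in NEJ709 at 244 CPM without shared barcodes and 62.3 CPM with cells weighted equally. NEJ634 stood at 12.5 CPM with libraries clustered alone, which left 30 lineage cells in it, and NEJ654 at 589 CPM with unnamed clusters counted in. The span of Cyp3a11 and the lowest library therefore changed with these settings. Cyp2e1, which oxidizes ethanol and paracetamol, stood at 1927 CPM in NEJ638, 1766 in NEJ677, 524 in NEJ654, 40.9 in NEJ709, 32.1 in NEJ634 and 13.2 in NEJ687, a span of 146-fold (110 to 198). Cyp2c29, an arachidonic acid epoxygenase, was at 1763 CPM in NEJ638, 736 in NEJ677, 622 in NEJ654, 30.6 in NEJ634 and 21.2 in NEJ687, with 0 UMIs in NEJ709, where the floor of 3 UMIs is 5.85 CPM. For each of these genes NEJ638, NEJ654 and NEJ677 held the upper values.

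Cyp2f2, the periportal naphthalene-oxidizing enzyme, stood at 1676 CPM in NEJ677, 1038 in NEJ654 and 487 in NEJ638. It was at 5.85 CPM (3 UMIs) in NEJ709, 3.30 CPM (12 UMIs) in NEJ687 and 2.39 CPM (43 UMIs) in NEJ634, a span of 700-fold (515 to 974). The order of the upper 3 changed with the clusters: with unnamed clusters counted in, Cyp2f2 stood at 320 CPM in NEJ677, 472 in NEJ654 and 479 in NEJ638, and with libraries clustered alone at 864, 1025 and 479 CPM. With cells weighted equally, Cyp2f2 stood at 1.28 CPM in NEJ709, 6.42 in NEJ687 and 2.996 in NEJ634, and with unnamed clusters counted in at 2.31, 3.35 and 2.03 CPM. No Cyp2f2 UMI was counted in NEJ634 with libraries clustered alone, so the order of the lower 3 and the span changed as well. Cyp2c54 spanned 1038-fold (396 to 3870) and Cyp4f14, a leukotriene-hydroxylating enzyme, 1155-fold (205 to 45896). The low end of Cyp2c54 was 4 UMIs in NEJ634 (0.223 CPM), where the ambient level was 0.273 CPM. Cyp4f14 rested on 1 UMI in NEJ687, and its interval is wide for that reason. Reads of close paralogs can be hard to place: 12 of the 94 members shared a 90-base stretch of their last 400 transcript bases with another Cyp gene in GENCODE M21. The largest shares were 39.2% of stretches for Cyp4a32, 33.8% for Cyp2c40, 31.5% for Cyp2c69 and 25.7% for Cyp2c68, so values of these genes are uncertain.

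Not all members spanned widely. Cyp2c68 stood at 400 CPM in NEJ638, 226 in NEJ677, 199 in NEJ654, 90.1 in NEJ634, 85.8 in NEJ709 and 68.4 in NEJ687, within 5.85-fold (5.09 to 6.75). Cyp3a25, a further Cyp3a drug-metabolizing gene, stood at 590.5 CPM in NEJ638, 541.5 in NEJ677, 260 in NEJ654, 140 in NEJ709, 112 in NEJ634 and 89.0 in NEJ687, within 6.63-fold (5.87 to 7.50). Cyp3a13 was the third member under 10-fold, at 7.12-fold (3.82 to 14.97). Cyp39a1, the oxysterol 7-alpha-hydroxylase, did not reach 100 CPM but was at 90.03 CPM in NEJ638, 69.1 in NEJ654, 55.1 in NEJ677, 48.6 in NEJ687, 42.6 in NEJ634 and 21.4 in NEJ709, a span of 4.20-fold (2.30 to 8.53). The interval of the Cyp39a1 span overlapped those of the Cyp2c68, Cyp3a25 and Cyp3a13 spans. The Cyp3a subfamily made up 43.5% of P450 UMIs in NEJ709, 34.8% in NEJ634, 31.9% in NEJ687, 28.9% in NEJ677, 28.1% in NEJ638 and 17.8% in NEJ654, and Cyp2c 18.2%, 22.5%, 21.3%, 15.7%, 32.7% and 19.97% in the same order.

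Cyp1a1 was the reverse case, most clearly in NEJ634. It stood at 24.3 CPM (437 UMIs) in NEJ634, 13.7 CPM (50 UMIs) in NEJ687 and 5.85 CPM (3 UMIs) in NEJ709, and 1 UMI was counted in each of NEJ638 and NEJ677 and none in NEJ654. Its companion Cyp1a2, which is constitutive in pericentral hepatocytes, stood at 389 CPM in NEJ638, 340 in NEJ677, 97.5 in NEJ654, 13.5 in NEJ634, 11.7 in NEJ709 and 6.32 in NEJ687. In the unnamed cluster 17, which held 1469 cells of NEJ634, Cyp1a1 stood at 23.1 CPM, but it was at 1.08 CPM in the 465 cells of cluster 34 and at 3.93 CPM in the 41 cells of cluster 39 of the same library. In the lineage cells the Cyp1a1 interval of NEJ709 (1.21 to 17.1 CPM) overlapped those of NEJ638, NEJ654 and NEJ677. That of NEJ687 (10.1995 to 18.1 CPM) overlapped that of NEJ677 (0.0465 to 10.227 CPM). Cyp20a1, a member with no settled substrate, also had its lower values in NEJ638, NEJ654 and NEJ677 (8.11, 7.40 and 5.51 CPM, from 20, 6 and 3 UMIs). It stood at 17.98, 16.2 and 23.4 CPM in NEJ634, NEJ687 and NEJ709. The Cyp20a1 intervals of NEJ654 (2.72 to 16.11 CPM) and NEJ677 (1.14 to 16.09 CPM) overlapped those of NEJ634 (16.08 to 20.06 CPM), NEJ687 and NEJ709. That of NEJ638 (4.95 to 12.53 CPM) overlapped those of NEJ687 (12.34 to 20.9 CPM) and NEJ709 (12.09 to 40.9 CPM).

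Members known as higher in female liver had their upper sums in NEJ638 and NEJ654, both with Xist UMIs, while NEJ634, which also had them, did not. Cyp2a4, a steroid 15-alpha-hydroxylase, stood at 344 CPM in NEJ654, 42.2 in NEJ638 and 31.2 in NEJ677, with 1 UMI in NEJ634 and none in NEJ687 or NEJ709. Its close paralog Cyp2a5, the coumarin 7-hydroxylase, stood at 176 CPM in NEJ677, 133 in NEJ638 and 74.0 in NEJ654, beside 9.62 in NEJ687 and 2.78 in NEJ634. The ratio of Cyp2a4 to Cyp2a5 UMIs was thus 4.65 (3.51 to 6.25) in NEJ654, 0.317 (0.252 to 0.396) in NEJ638 and 0.177 (0.0991 to 0.299) in NEJ677, although both promoters are nearly the same letters. In the ambient profiles the ratio was 0.889, 0.567 and 0.131 in the same order. NEJ654 had only 1 pericentral cell (below), and the part of lobule position in this ratio was not tested. Cyp2a4 shared 9.003% of its 90-base stretches with Cyp2a5.

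Cyp2b9 stood at 263 CPM in NEJ654, 149 in NEJ638 and 14.7 in NEJ677, and at 1.002 CPM in NEJ634 and 0.275 CPM (1 UMI) in NEJ687. Cyp2b13 stood at 132 CPM in NEJ654, 10.95 in NEJ638 and 0.223 (4 UMIs) in NEJ634, with no UMI in NEJ677, NEJ687 or NEJ709. Cyp3a44 stood at 53.1 CPM in NEJ638 and 45.6 in NEJ654, and none was counted in NEJ677. Cyp3a16 stood at 17.4 CPM in NEJ638 and 2.47 CPM (2 UMIs) in NEJ654, with none in NEJ677. Cyp2a4, Cyp3a16, Cyp3a44 and Cyp2c69 did not separate all 3 libraries. The Cyp2a4 intervals of NEJ638 (34.5 to 51.1 CPM) and NEJ677 (18.2 to 49.96 CPM) overlapped. So did the Cyp3a16 intervals of NEJ654 (0.299 to 8.91 CPM) and NEJ677 (0 to 6.77 CPM). The Cyp3a44 intervals of NEJ638 (44.4 to 63.0 CPM) and NEJ654 (32.1 to 62.9 CPM) overlapped too. For Cyp2c69 those of NEJ654 (20.95 to 47.0 CPM) and NEJ677 (22.4 to 56.7 CPM) overlapped. Cyp2c69 stood at 316 CPM in NEJ638, 36.7 in NEJ677 and 32.1 in NEJ654, and its reads are among those hard to place. Cyp17a1, the steroid 17-alpha-hydroxylase, stood at 92.5 CPM in NEJ654, 58.4 in NEJ638, 7.34 in NEJ677, 5.96 in NEJ634, 4.95 in NEJ687 and 1.95 in NEJ709. All 7 listed members reached 10 CPM, and their sum was 912 CPM in NEJ654, 647 in NEJ638, 89.9 in NEJ677, 10.2 in NEJ634, 5.77 in NEJ687 and 1.95 in NEJ709.

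The listed male-biased members had their upper values in NEJ677. Cyp2d9, a testosterone 16-alpha-hydroxylase, stood at 639 CPM in NEJ677, 51.1 in NEJ638, 30.8 in NEJ654, 22.7 in NEJ634, 17.5 in NEJ709 and 17.04 in NEJ687. Its relative Cyp2d10 stood at 1070 CPM in NEJ677, 658 in NEJ654 and 279 in NEJ638. Cyp7b1, the oxysterol 7-alpha-hydroxylase of the acidic bile acid route, stood at 49.6 CPM in NEJ677, 8.64 in NEJ654 and 5.68 in NEJ638. NEJ687 and NEJ709, which carried Y-linked UMIs, had no Cyp7b1 UMI in the class.

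Bile acid synthesis members differed in the library that led. Cyp7a1, the rate-limiting enzyme of the classic route, stood at 285 CPM in NEJ638, 17.4 in NEJ634, 16.5 in NEJ677, 11.7 in NEJ709, 11.1 in NEJ654 and 3.57 in NEJ687. Cyp8b1, which sets the share of cholic acid, stood at 441 CPM in NEJ677, 117 in NEJ654, 40.6 in NEJ638, 5.68 in NEJ634, 3.02 in NEJ687 and 1.95 (1 UMI) in NEJ709. Cyp27a1, the mitochondrial sterol 27-hydroxylase, stood at 285 CPM in NEJ677, 154 in NEJ654, 90.8 in NEJ638 and between 19.8 and 25.3 CPM in NEJ634, NEJ687 and NEJ709. For Cyp7a1 the intervals of NEJ634, NEJ677, NEJ709 and NEJ654 overlapped.

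Fatty acid omega-hydroxylases of the Cyp4a, Cyp4f and Cyp4v subfamilies, many of them targets of PPAR-alpha, reached 10 CPM for 7 of 8 listed members. Cyp4a14 stood at 310.2 CPM in NEJ677, 289.6 in NEJ638 and 172 in NEJ654, and between 15.6 and 18.7 CPM in NEJ634, NEJ687 and NEJ709. Cyp4a10 stood at 208 CPM in NEJ638, 159.7 in NEJ677, 109.8 in NEJ654, 3.79 in NEJ634 and 0.550 in NEJ687 (2 UMIs), and had no UMI in NEJ709. Of the listed steroid-making, vitamin D and retinoic acid members, only Cyp17a1 and Cyp2r1 reached 10 CPM in the lineage cells. Cyp2r1, the vitamin D 25-hydroxylase, reached 13.8 CPM in NEJ638, and Cyp26a1, a retinoic acid hydroxylase, at most 6.49 CPM.

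Of genes that act with P450 enzymes, none of the 5 electron donors and none of the 4 regulators with 100 CPM or more spanned 10-fold, beside 21.6% of all genes at that level. The spans lay between 2.33-fold and 3.58-fold for these donors and between 1.75-fold and 6.04-fold for these regulators, beside a median of 4.52-fold over all genes. Por, the reductase that feeds all microsomal P450 enzymes, stood at 287 CPM in NEJ638, 198 in NEJ687, 179 in NEJ634, 170 in NEJ709, 134 in NEJ677 and 88.8 in NEJ654. Hnf4a, the nuclear receptor that maintains hepatocyte genes, stood at 174 CPM in NEJ638, 149 in NEJ677, 145 in NEJ687, 144 in NEJ654, 109 in NEJ634 and 99.4 in NEJ709. Nr1i2 (PXR), the xenobiotic sensor for Cyp3a genes, was between 20.2 and 35.1 CPM in the 6 libraries. Nr1i3 (CAR), the sensor for Cyp2b genes, was between 41.0 and 45.6 CPM in NEJ638, NEJ654 and NEJ677 and between 16.2 and 19.5 CPM in NEJ634, NEJ687 and NEJ709.

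Within each library, lineage cells were compared with all other analysed cells. A level at least 2-fold higher, with a ratio interval above 1, was found for 55 of 64 members with enough UMIs in 1 library or more, where 36.6% of 15855 genes were. In all 6 libraries it held for 17 of the 27 members tested in each, where 5.77% of 12244 genes did. By library the count was 38 of 55 in NEJ634 (12.5% of all genes tested), 28 of 35 in NEJ687 (26.9%), 23 of 35 in NEJ709 (24.2%), 50 of 58 in NEJ638 (18%), 45 of 51 in NEJ654 (12.7%) and 43 of 49 in NEJ677 (11.8%). Among the 17 were Cyp3a11, Cyp3a25, Cyp2e1, Cyp1a2, Cyp2c68, Cyp2d26, Cyp27a1 and Cyp39a1. The classes were clusters of these same cells, so the contrast is a description.

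Position in the lobule was read from landmark genes that are not P450 genes (pericentral Glul, Oat and others, periportal Sds, Hal and others), by the pericentral share of their UMIs in each cell. In NEJ638 this gave 37 pericentral, 62 middle and 183 periportal cells, and 37 of all these lay within 0.05 of a limit. Cyp2e1 stood at 5125 CPM in the pericentral pool, 2781 in the middle and 731 in the periportal pool, a pericentral to periportal ratio of 7.01 (6.5003 to 7.56). Cyp2f2 stood at 811 CPM in the periportal and 33.5 CPM in the middle pool and had 0 UMIs in the pericentral pool, which is at least 102-fold lower. Cyp3a11 did not differ beyond counting error, with a ratio of 0.958 (0.902 to 1.02).

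Of 47 members tested in NEJ638, 21 were higher in the pericentral and 11 in the periportal pool, where 9.6% and 6.2% of the 7060 genes tested were, landmarks left out. Ratios were 8.93 (6.72 to 11.96) for Cyp2a5, 5.93 (5.06 to 6.95) for Cyp1a2, 2.61 (2.15 to 3.15) for Cyp7a1 and 2.67 (2.48 to 2.87) for Cyp2c29. On the periportal side were Cyp17a1, at 0.0293 (0.000737 to 0.166), and Cyp2a4, at 0.281 (0.100 to 0.639), so the pair Cyp2a4 and Cyp2a5 lay on opposite sides. In NEJ634 14 of 43 members were higher in the 38 cells of the pericentral landmark pool than in the 2812 of the periportal one. The share over 11879 genes was 3.62%. No member was lower, where 2.25% of genes were. In NEJ634 362 cells lay within 0.05 of a limit, more than the 38 pericentral cells. There Cyp2e1 stood at 553 against 24.9 CPM and Cyp3a11 at 870 against 199 CPM. Cyp2f2 was at 2.48 CPM (37 UMIs) in the periportal pool of NEJ634, far below that of NEJ638. The NEJ634 pools are therefore named by the landmarks only and not read as places in the lobule. NEJ634 had 3 lineage cells in cluster 31, and their part in these pools was not tested. NEJ654 had only 1 pericentral cell and NEJ687 none, so no ratio is read from them.

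**Figure D3:**
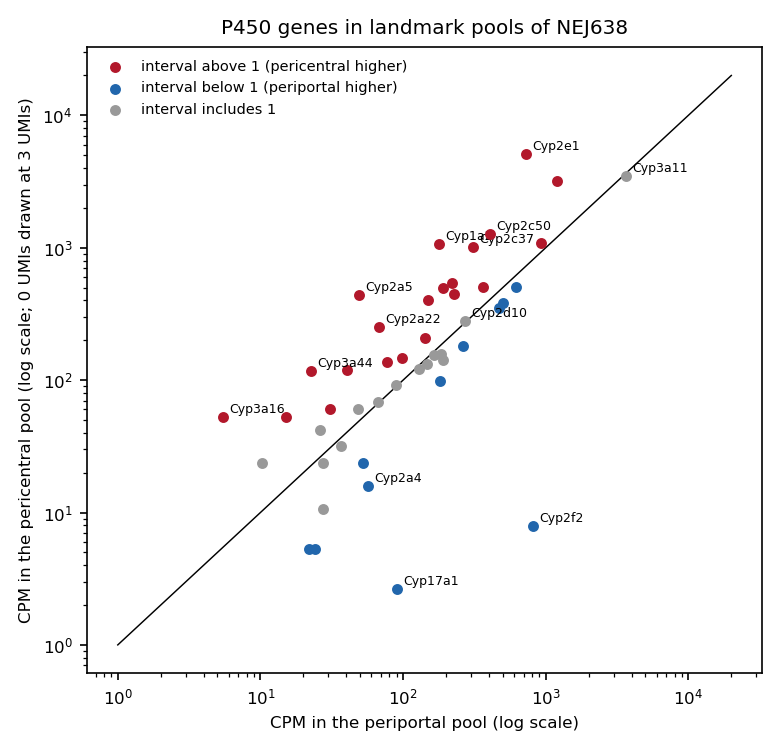
Level of each P450 gene with 20 or more UMIs in the periportal pool (x, CPM, log axis) and the pericentral pool (y, CPM, log axis) of hepatocyte-lineage-like cells of NEJ638, with the line of equal levels. Red genes, such as Cyp2e1 and Cyp2a5, have a ratio interval above 1, blue genes, such as Cyp2f2 and Cyp17a1, an interval below 1, and Cyp2f2, with 0 UMIs in the pericentral pool, is drawn at the value of 3 UMIs in that pool.

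Outside hepatocytes, a few members marked other cells. Cyp4b1, a fatty acid and xenobiotic hydroxylase, stood between 50.4 CPM (NEJ723) and 463 CPM (NEJ677) in endothelial-like cells of 6 libraries and was above the ambient level in all 6 and above the lineage level in the 5 of them with 20 or more lineage cells. Cyp26b1, which breaks down retinoic acid, stood in the same cells at 335 CPM in NEJ677, 218 in NEJ638, 160 in NEJ654, 28.2 in NEJ687, 22.1 in NEJ634 and 6.72 in NEJ723. Cyp20a1 was between 41.5 and 73.8 CPM in endothelial-like and between 51.9 and 81.1 CPM in mesenchymal-like cells. For these cells NEJ634, NEJ687 and NEJ723 gave 56, 92 and 57 cells, and NEJ638, NEJ654 and NEJ677 gave 2241, 2342 and 1842.

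Among blood cells Cyp4f18, the leukotriene B4 hydroxylase of neutrophils, stood between 324 and 481 CPM in neutrophil-like cells and between 135 and 225 CPM in monocyte-like cells of all 7 libraries, above the ambient level in each and above the lineage level in the 6 with 20 or more lineage cells. Cyp4f16 stood between 20.5 and 61.5 CPM in monocyte-like cells of all 7. Cyp11a1, the side-chain cleaving enzyme that starts steroid synthesis, was at 911 CPM (662 to 1223) in 26 basophil/mast-like cells of NEJ638 and 197 CPM (110 to 325) in 20 of NEJ654. It was at 81.2 CPM in NEJ634, 24.8 in NEJ687 and 23.5 in NEJ723, and 80.8% of the NEJ638 cells held a Cyp11a1 UMI, beside 0.134% of the endothelial-like cells there. In NEJ677 and NEJ709 this class had fewer than 20 cells. Cyp4v3, an omega-hydroxylase, stood between 17.1 and 36.004 CPM in macrophage-like cells. There it was above the ambient level, and the lineage level where given, in only 3 of 7 libraries. In the lineage cells Cyp4v3 stood at 171 CPM in NEJ638, 158 in NEJ654 and 204 in NEJ677, and at 14.5 CPM in NEJ634, 8.79 in NEJ687 and 9.75 in NEJ709.

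**Figure D4:**
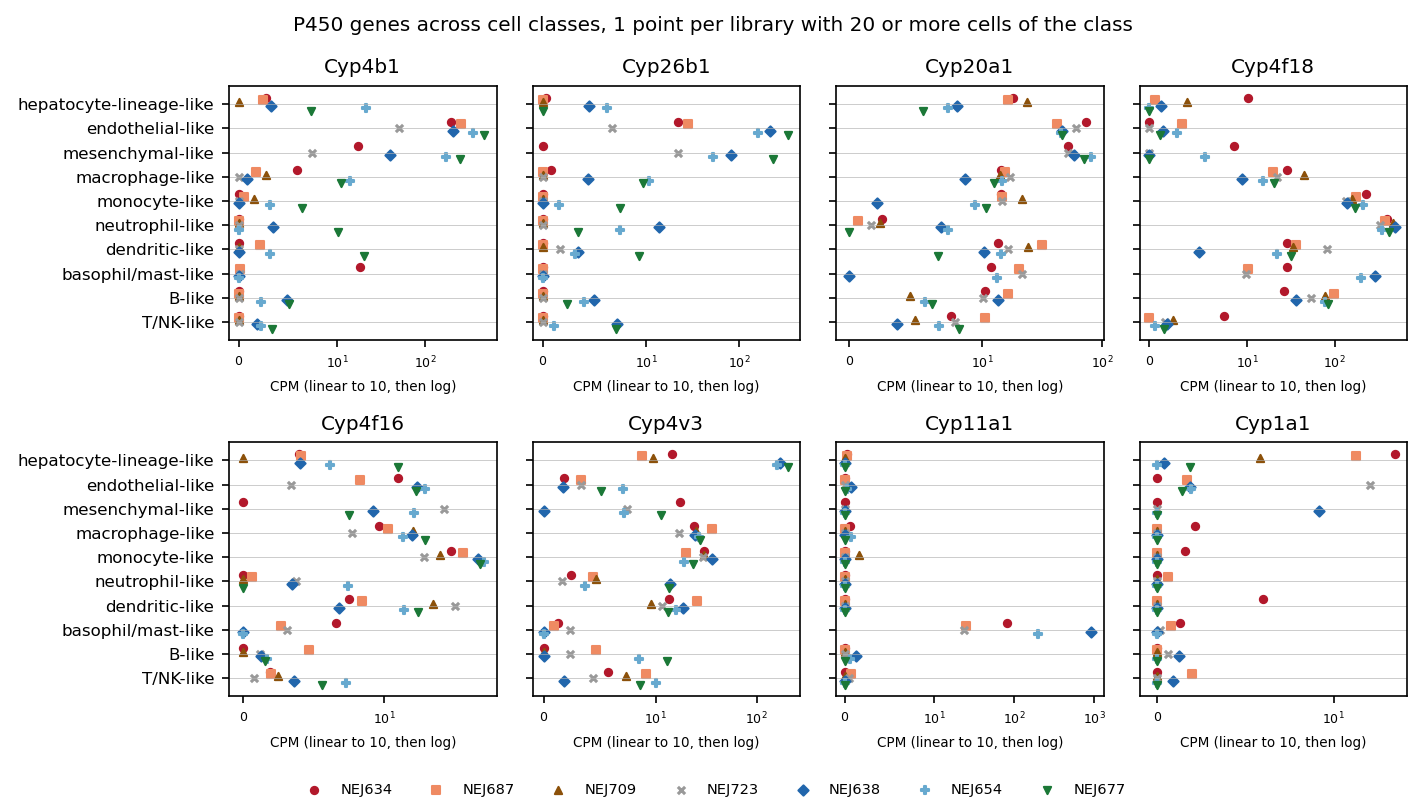
Level of 8 P450 genes in 10 cell classes (CPM, linear to 10 and then log), 1 point per library with 20 or more cells of the class. Cyp4b1 and Cyp26b1 are highest in endothelial-like and mesenchymal-like cells, Cyp4f18 in neutrophil-like cells, Cyp11a1 in basophil/mast-like cells and Cyp1a1 in the lineage cells of NEJ634, with 24.3 CPM.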

How the data were processed

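Livers were dissociated with collagenase and sequenced with the 10x Genomics 3′ kit. According to the study's methods, reads were counted with Cell Ranger with introns included. The labels give Cell Ranger 6.0 and the file headers give version 4, and which made these files is not settled. The genome build is not given in the sources used here. The values deposited by the authors are raw counts of unique molecular identifiers (UMIs) per gene and barcode, with empty barcodes left in. The series' design text speaks of nuclei and the study's methods of cells.

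Cells were called per library by a percentile rule and a test against the ambient profile (barcodes of ranks 45000 to 90000, adjusted p of 0.01 or below). At most 20000 candidate barcodes per library were tested, of 68463 in NEJ634, 36117 in NEJ723 and 22814 in NEJ709. Barcodes over 500 UMIs with at most 20% mitochondrial UMIs were kept (81441 cells), and 8857 probable doublets were removed by scores against simulated doublets. The 72584 analysed cells were clustered together (2000 variable genes, 40 components, Leiden resolution 1, leidenalg 0.10.2). Clusters were named from marker lists that hold no P450 gene, with limits set after seeing the data (a mean log2 fold of 1.5 and a lead of 1 over the next class), and 22 of 51 clusters stayed unnamed. All Cyp genes, the sex-linked genes and the pathway genes except Hnf4a, a marker, were left out of the variable genes. Intervals are exact 95% Poisson, Clopper-Pearson or conditional binomial intervals and cover counting error only. A count of 0 UMIs was set to 3 UMIs in the spans between libraries and in the fold of Cyp2f2 between landmark pools. Other ratios kept the count of 0. The calling, doublet scores and intervals were computed in python 3.11.15 with numpy 2.4.6 and scipy 1.17.1, and the calling, fold calls and intervals were tested on simulated data. The simulated counts held counting error only, with no further spread between cells and no doublets. They therefore check the computation and not its fit to these libraries.

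The labels describe all 7 libraries alike, so none was placed in a group, and no mean, SD or test between groups was computed. The P450 genes, role lists and marker lists were chosen with earlier results of these data known. Genes were chosen for naming by a rule: the 15 highest in the hepatocyte lineage, the 10 with the widest range, the members of role lists with 20 or more UMIs, and the leading 2 of each other class. Some that it selects, such as Cyp2c50, Cyp2c37, Cyp2a12 and Cyp2j5, are not described. Some genes, such as Cyp3a13 and Cyp11b2, were named outside it. Alternatives changed the cell calling, quality limits, doublets, shared barcodes, clustering, CPM total, weighting of cells and free RNA.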

Additional observations from a re-analysis of the deposited data

Results flagged for a closer look

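Of the genes of the superfamily whose symbols fall outside the rule used here, 3 stood above the ambient level in the lineage cells of NEJ677. Cyp4a12a, a male-biased fatty acid hydroxylase, stood at 69.8 CPM (38 UMIs, 49.4 to 95.7) in NEJ677, with 1 UMI in NEJ634 and none in the lineage cells of NEJ687, NEJ709, NEJ638 or NEJ654. Cyp4a12b, its close paralog, stood at 7.34 CPM (4 UMIs, 2.0005 to 18.8) in NEJ677. Cyp51, the lanosterol demethylase of cholesterol synthesis, stood at 195 CPM in NEJ677, 177 in NEJ638, 104.9 in NEJ654, 37.5 in NEJ634, 28.6 in NEJ687 and 9.75 in NEJ709.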

How the results depend on the processing

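The span of the P450 total between libraries, 23.7-fold, stayed within its counting interval in 8 of 11 alternatives. It was 43.6-fold (NEJ638 over NEJ634) with libraries clustered alone, where 30 lineage cells were left in NEJ634 and fewer than 20 in NEJ709, 34.1-fold with cells weighted equally, and 53.9-fold (NEJ638 over NEJ723) with unnamed clusters counted in, an alternative chosen after seeing the data. The number of members at 10 CPM ranged from 43 to 58, of members with a 10-fold span from 28 to 39 and of members higher in the lineage from 52 to 62, each within 1.5 times its value in all 12 alternatives. For the span, 30 to 43 members were tested, and the share over all genes ranged from 16.0% to 26.8%. For the lineage, 61 to 84 members were tested, and the share over all genes ranged from 25.9% to 48.4%. The median P450 total of other cells, 313 CPM, was 259 with the percentile rule only, 306 with stricter quality limits, 342 with doublets kept, 295 at resolution 2, 423 with libraries clustered alone, 351 without haemoglobin and mitochondrial UMIs and 328 with cells weighted equally. It was 230.2 over other named classes only and 264 with unnamed clusters counted in, both chosen after seeing the data. The ambient median, 453 CPM, was 441 once barcodes called as cells elsewhere were left out, also chosen after seeing the data. Both medians are values of NEJ634, whose ambient ranks include untested candidates. The causes of these shifts were not tested. In NEJ709, with 32 cells, 1 UMI is worth 1.95 CPM, and the floor of 3 UMIs is 5.85 CPM. No paired analysis was made, because the labels place no library in a group.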

Other observations

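Unnamed clusters also held P450 UMIs. In cluster 24 the P450 total was 2285 CPM (50 UMIs, 1696 to 3013) over 33 cells of NEJ687, 1663 CPM over 247 cells of NEJ654 and 1308 CPM over 790 cells of NEJ677. In cluster 34 it was 687 CPM over 465 cells of NEJ634, and in cluster 17 574 CPM over 1469 cells of NEJ634. Cluster 36 lay between 324 and 415 CPM in NEJ687, NEJ654 and NEJ677. Cluster 39 stood at 303 CPM over 41 cells of NEJ634 and 272 CPM over 155 cells of NEJ723. The 8 lineage cells of NEJ723 held 228 P450 UMIs, or 2174 CPM (1901 to 2475). Of these 8 cells, 1 carried a barcode that was also a cell of another library. With unnamed clusters counted in, NEJ723 stood at 294 CPM over 163 cells.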
